A study of Danio rerio with 246 samples.

Results

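The proteasome genes of zebrafish blood cells were taken from read counts of sorted kidney marrow cells. The kidney marrow is where adult zebrafish make blood. Rows were chosen by name, as symbols that begin with psma, psmb, psmc, psmd or psme followed by a digit, and 53 of 21876 gene rows met this rule. Of these, 51 encode proteasome subunits, chaperones of proteasome assembly or activators, and they are described together. The other 2, psmc3ip and psme3ip1, encode proteins that bind the products of such genes, and they are described on their own. The names list another 2 genes of this kind, PSMB11 and psmb11b, which were not analysed here. The cells had been sorted by fluorescence, 1 cell to a well, and their RNA was copied by a variant of Smart-seq2, which reads whole transcripts. The 246 cells came from 6 reporter lines, with 39 cells of Runx123_GFP on plate 1, 43 of cd41_GFPlow on plate 3, 47 of mpx_EGFP on plate 4, 48 of rag2_GFP and 38 of lck_GFP on plate 2, and 31 of lck_GFP_rag1 on plate 5. A reporter line carries a green fluorescent protein under the promoter for which it is named. No treatment, genotype, age or sex is given in the labels, the lines share nothing stated beyond the tissue and the sort, and what rag1 stands for in the last name is not stated. Since no animals are named in the labels, a line counts as 1 sample. Differences between lines therefore have no replicate check and no p-value, and line and plate cannot be told apart except on plate 2.

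The proteasome is the barrel-shaped protease that degrades proteins tagged with ubiquitin in every nucleated cell. Its core is built from rings of alpha subunits, which gate the entrance, and rings of beta subunits, of which 3 kinds (psmb5, psmb6 and psmb7) cut peptide bonds. Immune cells and cells that meet interferon can replace these 3 with immune-type counterparts, and the resulting immunoproteasome makes peptides that fit the groove of class I molecules of the major histocompatibility complex. The psmc and most psmd genes encode the ATPase and non-ATPase subunits of the cap that binds ubiquitin chains, unfolds proteins and feeds them in, and the psme genes encode activators that can sit on the core in place of the cap.

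The reads of all cells in a line were added up and divided by the line's total, giving counts per 1000000 assigned reads (CPM). Totals per line ranged from 23028484 reads in lck_GFP to 47836984 in cd41_GFPlow. The intervals given are exact 95% Poisson intervals for counts and exact 95% Clopper-Pearson intervals for shares. They cover counting error only, since reads copied by PCR are not independent molecules. Detected genes per cell had a median of 782 to 1065 in the 3 lymphoid reporters and of 1606 to 2804 in the others. Marker genes followed the names of some lines. The summed neutrophil markers reached 54959.8 CPM in mpx_EGFP, the B cell markers 3826 CPM in rag2_GFP and the T cell markers 3676 CPM in lck_GFP, each the highest of the 6 lines. The neutrophil marker mmp9 was not called higher in mpx_EGFP but was in lck_GFP, where the neutrophil markers summed to 85.5 CPM. Other lines went against their names in part. Thrombocyte markers, among them itga2b, which is also called cd41, summed to 14.4 CPM in the line labelled cd41_GFPlow, with mpl at 0, and to 3847 CPM in Runx123_GFP. The line labelled cd41_GFPlow carried monocyte and macrophage markers at 1508 CPM. Its neutrophil markers summed to 6038 CPM, but none of them was called higher there. Of these, mmp13a and mmp9 were called lower, and mmp9 had no read. The line labelled lck_GFP_rag1 had cd4-1, cd8a and zap70 at 0 and il7r called lower, while lck was not called lower. Its T cell markers summed to 684 CPM and its markers of natural killer (NK) and cytotoxic cells to 2675 CPM. Its monocyte and macrophage markers summed to 513 CPM, with 2 of the 8 genes at 0, both named mpeg1. In rag2_GFP these markers summed to 768 CPM, with mpeg1 called higher and c1qa, c1qb, c1qc, marco and csf1ra at 0, and in lck_GFP all 8 were at 0. The rag2_GFP, lck_GFP and lck_GFP_rag1 lines are called lymphoid reporters here by their promoters, and the part of other cells in their values was not tested. Erythroid markers were highest in Runx123_GFP, at 4663 CPM, and kidney tubule markers were at most 397 CPM, in Runx123_GFP, with cdh17 and pdzk1 at 0 there.

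Cells of mpx_EGFP, the neutrophil reporter, had the lowest summed level of proteasome genes, and Runx123_GFP cells the highest. The 51 genes together took 6839 CPM in Runx123_GFP, 6001 CPM in cd41_GFPlow, 2910.2 CPM in mpx_EGFP, 4768 CPM in rag2_GFP, 5768 CPM in lck_GFP and 4786 CPM in lck_GFP_rag1. The interval was 2889 to 2932 CPM for mpx_EGFP and 6812 to 6867 CPM for Runx123_GFP. Against the mean of the other 5 lines the sum was 1.41-fold in Runx123_GFP (6839 against 4847 CPM) and 0.517-fold in mpx_EGFP (2910.2 against 5633 CPM). In the remaining lines it lay between 0.906-fold and 1.2-fold. The mpx_EGFP sum was the lowest under every scaling and choice of cells tried. With TMM scaling lck_GFP was highest (5939 CPM, and 5889 CPM in Runx123_GFP). In cells with at least 1000 detected genes lck_GFP was highest too, at 7967 CPM, and rag2_GFP was at 7684 CPM, above Runx123_GFP at 7133 CPM. In mpx_EGFP the low level ran through nearly the whole set, as 49 of 51 genes (96.1%) lay below the mean of the other lines, beside 74.0% of all 12660 genes tested. In bulk sums such as these, fewer cells with a transcript and less of it per cell cannot be told apart, so values per cell follow.

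The sum in single cells ran from 672 CPM over a median of 2835 CPM up to 5273 CPM in mpx_EGFP. In Runx123_GFP it ran from 4.39 over 6698 up to 13462 CPM, and in cd41_GFPlow from 896 over 6292 up to 10228 CPM. In the lymphoid reporters the medians were 3858 CPM in rag2_GFP, 4549.9 CPM in lck_GFP and 4061 CPM in lck_GFP_rag1, within ranges of 2.40 to 11842, 367 to 18284 and 0 to 11337 CPM in the same order. The ranges of all lines overlapped. A cell counted as having a gene when that gene was at 10 CPM or more in it. By this measure the median cell had 20 of the 51 genes in Runx123_GFP, 25 in cd41_GFPlow, 9 in mpx_EGFP, 3 in rag2_GFP, 4 in lck_GFP and 4 in lck_GFP_rag1. With each cell thinned to 200000 reads the medians were 20.5, 25, 9, 3, 4 and 4.5 in the same order. As a share of all genes a cell had, the 51 genes made up a median of 0.970% in Runx123_GFP, 1.06% in cd41_GFPlow, 0.658% in mpx_EGFP, 0.467% in rag2_GFP, 0.660% in lck_GFP and 0.556% in lck_GFP_rag1. The few proteasome genes seen per lymphoid reporter cell stood beside few detected genes of any kind. As a share of the genes a cell had, the medians of these lines also lay below those of Runx123_GFP and cd41_GFPlow. The part of detection in these values was not tested. At least 1 of the 51 genes was present in 38 of 39 Runx123_GFP cells, in every cell of cd41_GFPlow, mpx_EGFP and lck_GFP, in 46 of 48 rag2_GFP cells (95.8%; 85.7 to 99.5%) while 28 of 31 cells had one in lck_GFP_rag1 (90.3%, interval 74.2 to 98.0%). The shares of thinned cells were 95.1% in rag2_GFP and 90.0% in lck_GFP_rag1.

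**Figure D1:**
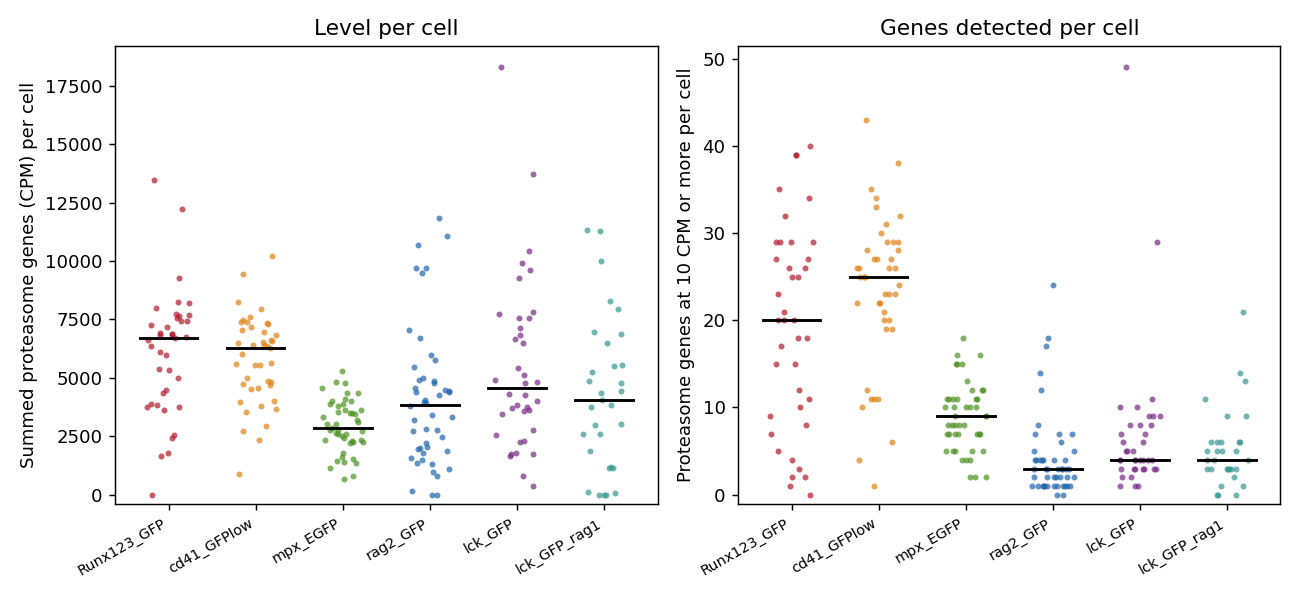
Each point is 1 cell. The left panel gives the summed level of the 51 proteasome genes in CPM and the right panel the number of them at 10 CPM or more, by reporter line, with a bar at the median over the cells of the line. The mpx_EGFP points lie low and close together on the left, up to 5273 CPM, and 1 lck_GFP cell stands apart with 49 genes and 18284 CPM.

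Single genes were set against the mean of the other 5 lines as a log2 ratio, after adding 1 CPM to both, which understates the change of low genes. A gene was called higher or lower at 4-fold or more. Of 12660 genes tested (10 CPM or more in at least 1 line) the proteasome genes were 51, so all of them passed this filter. In Runx123_GFP 0 proteasome genes were higher and 0 lower, where 11.3% of all genes tested were higher and 25.3% lower. In cd41_GFPlow 0 were higher and 1 lower, beside 6.43% and 20.9% of all genes. Of the 51 in mpx_EGFP, 0 were higher and 8 lower, beside 6.03% and 39.2%. Of those in rag2_GFP, 2 were higher and 4 lower, beside 15.9% and 39.2%. The lck_GFP sum had 2 higher and 10 lower, beside 8.64% and 47.2%, and the lck_GFP_rag1 sum had 0 higher and 11 lower, beside 8.59% and 49.7%. In every line, then, the share of proteasome genes that passed 4-fold in either direction was below that of all genes. The median log2 ratio of the 51 genes was 0.60 in Runx123_GFP, 0.24 in cd41_GFPlow, -1.06 in mpx_EGFP, -0.43 in rag2_GFP, 0.13 in lck_GFP and -0.17 in lck_GFP_rag1. Over all genes tested it was -0.22 in Runx123_GFP, -0.33 in cd41_GFPlow, -1.34 in mpx_EGFP, -0.87 in rag2_GFP, -1.82 in lck_GFP and -1.98 in lck_GFP_rag1. With this filter and pseudocount the median of the proteasome genes lay above that of all genes in each line. Without the filter it lay below in mpx_EGFP (-1.06 against -0.42) and in rag2_GFP (-0.43 against -0.18). It also lay below in mpx_EGFP with a pseudocount of 10 CPM (-0.94 against -0.59) and in cells with at least 1000 detected genes (-1.45 against -1.36), and in rag2_GFP with a filter of 50 CPM (-0.43 against -0.39). Scaling by TMM or DESeq2 factors moved the medians of all genes, in mpx_EGFP to -0.95 and -0.88, and those of the proteasome genes to -0.72 and -0.66, and the sign of the median of the 51 genes was the same in each line under both. The sign turned in some lines with the cells included. In lck_GFP the median was -0.10 once the deepest cell of every line was left out, -0.73 with the top cell of every gene left out per line and -0.15 without its cell with the most detected genes. In cells with at least 1000 detected genes it was -0.19 in cd41_GFPlow, 0.32 in rag2_GFP and -0.42 in lck_GFP. At 2-fold, 13 of the 51 genes were higher and 4 lower in Runx123_GFP (23.9% and 37.1% of all genes tested), 1 and 3 in cd41_GFPlow (15.8% and 35.3%), 0 and 26 in mpx_EGFP (12.4% and 55.6%), 7 and 12 in rag2_GFP (25.3% and 48.7%), 5 and 16 in lck_GFP (16.9% and 58.7%) and 5 and 16 in lck_GFP_rag1 (16.7% and 59.8%). By line sums, 19 of the 51 genes were highest in Runx123_GFP, 13 in lck_GFP, 8 in rag2_GFP, 7 in lck_GFP_rag1, 3 in cd41_GFPlow and 1 in mpx_EGFP, while 18 were lowest in mpx_EGFP. No such counts over all genes are given here, so these do not set the proteasome genes apart from other genes.

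**Figure D2:**
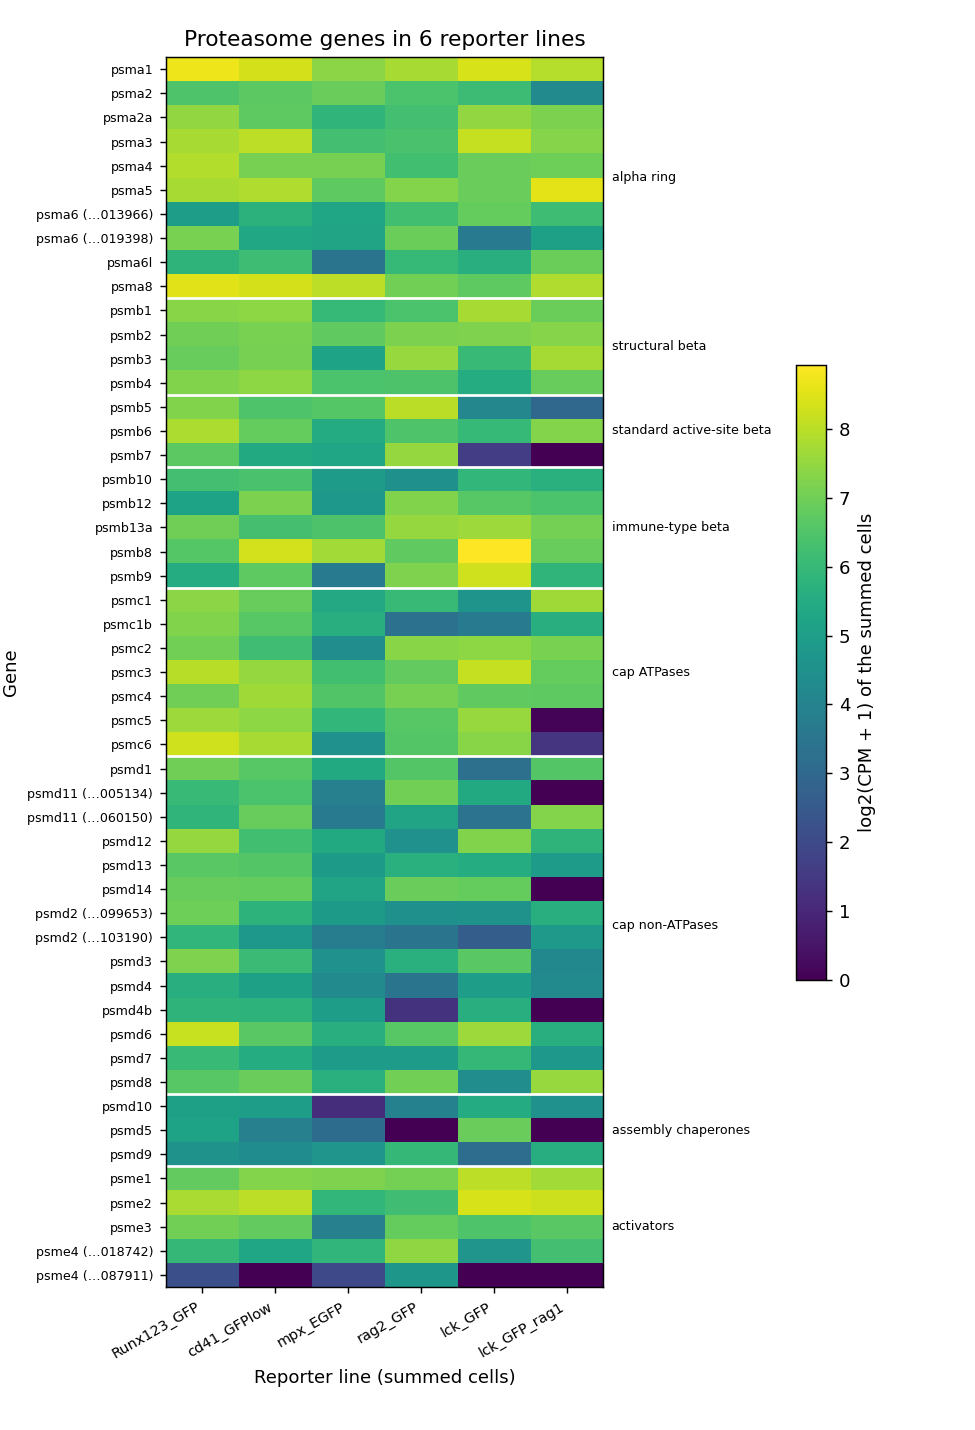
Colour gives log2(CPM + 1) of the 51 proteasome genes (rows, grouped by role) in the summed cells of each reporter line (columns), from 0 (dark) upward. Dark cells for psmb7, psmc5, psmc6, psmd14, psmd4b and 1 of the psmd11 genes appear in lck_GFP_rag1, and the psmb8 field is brightest in lck_GFP at 489 CPM.

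Among the subunits that cut, lck_GFP had the lowest summed level of the standard kind, also under each scaling and choice of cells tried. After thinning it was all but level with lck_GFP_rag1, at 118.125 CPM in lck_GFP against 118.167 CPM in lck_GFP_rag1. The standard trio psmb5, psmb6 and psmb7 summed to 481 CPM in Runx123_GFP, 241 CPM in cd41_GFPlow, 176 CPM in mpx_EGFP, 525 CPM in rag2_GFP, 81.0 CPM in lck_GFP and 160.0 CPM in lck_GFP_rag1. In lck_GFP this was 0.256-fold the mean of the other lines (81.0 against 317 CPM). The gene psmb5 (ENSDARG00000075445), whose product cuts after hydrophobic residues, was at 151 CPM in Runx123_GFP, 87.0 CPM in cd41_GFPlow, 94.2 CPM in mpx_EGFP, 255 CPM in rag2_GFP, 16.7 CPM in lck_GFP and 7.20 CPM in lck_GFP_rag1. Cells with psmb5 numbered 2 of 38 in lck_GFP and 2 of 31 in lck_GFP_rag1, 5 of 48 in rag2_GFP and 21 of 39 in Runx123_GFP. Its log2 ratio was -2.76 in lck_GFP and -3.89 in lck_GFP_rag1, and after thinning -1.83 in lck_GFP, which no longer passed 4-fold.

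The gene psmb7 (ENSDARG00000037962), whose product cuts after basic residues, was at 102 CPM in Runx123_GFP, 42.1 CPM in cd41_GFPlow, 38 CPM in mpx_EGFP, 181 CPM in rag2_GFP, 2.08 CPM in lck_GFP and 0 CPM in lck_GFP_rag1. The 48 reads in lck_GFP came from 1 cell. None of the 31 lck_GFP_rag1 cells had a read. At a floor of 3 cells that allows a share of up to 9.68% of cells with a read, which is no limit on the share that express the gene. By counted reads, at a floor of 3 reads over the line, the level was at least 1042-fold lower than the mean of 73.0 CPM in the other 5 lines. That figure does not cover which cells were sampled, so it is no lower limit on the difference between the lines. In rag2_GFP psmb7 was called higher, with a log2 ratio of 2.27, but from 4 cells, of which 1 gave 36.5% of the reads. As a mean of per-cell CPM it was at 84.8 CPM there with a ratio of 1.35, and without the rag2_GFP cell with the most reads at 122 CPM with a ratio of 1.79, both short of 4-fold. The gene psmb6 (ENSDARG00000002240), whose product cuts after acidic residues, was at 229 CPM in Runx123_GFP, 112 CPM in cd41_GFPlow, 44.2 CPM in mpx_EGFP, 88.5 CPM in rag2_GFP, 62.2 CPM in lck_GFP and 153 CPM in lck_GFP_rag1, and no line passed 4-fold for it. Its transcripts were present in 27 of 39 cells in Runx123_GFP and 31 of 43 in cd41_GFPlow, and in 5 to 12 cells in each of the remaining lines.

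The immune-type beta subunit genes were led by lck_GFP. Their 5 genes summed to 378 CPM in Runx123_GFP, 730.4 CPM in cd41_GFPlow, 358 CPM in mpx_EGFP, 608 CPM in rag2_GFP, 1155 CPM in lck_GFP and 438 CPM in lck_GFP_rag1, and lck_GFP had 2.30-fold the mean of the other lines (1155 against 503 CPM). In single lck_GFP cells this sum ran from 0 over a median of 1133 to 4068 CPM. The medians were 689 CPM in cd41_GFPlow, 205 CPM in mpx_EGFP, 154 CPM in Runx123_GFP, 5.18 CPM in lck_GFP_rag1 and 0 in rag2_GFP, and single cells of every line were at 0, so all lines overlapped.

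The gene psmb8 (ENSDARG00000001303), the counterpart of psmb5 that is also called lmp7, was at 95 CPM in Runx123_GFP, 321 CPM in cd41_GFPlow, 205 CPM in mpx_EGFP, 107 CPM in rag2_GFP, 489 CPM in lck_GFP and 115 CPM in lck_GFP_rag1. The interval in lck_GFP was 480.3 to 498 CPM and that in cd41_GFPlow, the next line, 316 to 326 CPM. It reached 10 CPM in 11 of 39 in Runx123_GFP, 30 of 43 in cd41_GFPlow, 23 of 47 in mpx_EGFP, 4 of 48 in rag2_GFP, 18 of 38 in lck_GFP and 3 of 31 in lck_GFP_rag1. The cd41_GFPlow line had psmb8 in more of its cells, and lck_GFP had a higher level in the cells that had it. The median among those cells was 1124 CPM in lck_GFP and 375 CPM in cd41_GFPlow. Detected genes per cell had a median of 925 in lck_GFP and 2804 in cd41_GFPlow, and the part of detection in this contrast was not tested. No line passed 4-fold for psmb8, and the largest log2 ratio was 1.53, in lck_GFP.

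The gene psmb9 (ENSDARG00000000656), the counterpart of psmb6 that is also called lmp2, was at 44.9 CPM in Runx123_GFP, 105 CPM in cd41_GFPlow, 12.3 CPM in mpx_EGFP, 147 CPM in rag2_GFP, 314 CPM in lck_GFP and 55.9 CPM in lck_GFP_rag1. It was called higher in lck_GFP (log2 ratio 2.09, 11 of 38 cells) and lower in mpx_EGFP (log2 ratio -3.34, 3 of 47 cells). The call in lck_GFP was near its limit, with ratios of 1.69 as a mean of per-cell CPM, 1.80 once the deepest cell of every line was left out and 1.74 after thinning. The second gene of this kind, psmb12 (ENSDARG00000031885), was at 35.6 CPM in Runx123_GFP, 145 CPM in cd41_GFPlow, 26.3 CPM in mpx_EGFP, 151 CPM in rag2_GFP, 96.9 CPM in lck_GFP and 83.4 CPM in lck_GFP_rag1. For the site of psmb7, the immune-type gene psmb10 (ENSDARG00000043781) was at 75.8 CPM in Runx123_GFP, 82.6 CPM in cd41_GFPlow, 29 CPM in mpx_EGFP, 21.6 CPM in rag2_GFP, 59.9 CPM in lck_GFP and 50.2 CPM in lck_GFP_rag1. A further gene for that site, psmb13a (ENSDARG00000001656), which fish have and mammals lack, was at 126 CPM in Runx123_GFP, 77.4 CPM in cd41_GFPlow, 85.1 CPM in mpx_EGFP, 182 CPM in rag2_GFP, 195 CPM in lck_GFP and 134 CPM in lck_GFP_rag1. None of psmb10, psmb12 and psmb13a passed 4-fold in any line.

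Gene lengths are the same in every line and the scaling of a line cancels in a share, so the immune-type share of all reads on these 8 genes was compared next. The share is one of reads, not of molecules. It was 44% in Runx123_GFP, 75.2% in cd41_GFPlow, 67.0% in mpx_EGFP, 53.7% in rag2_GFP, 93.4% in lck_GFP and 73.3% in lck_GFP_rag1. The intervals were 93.1 to 93.7% in lck_GFP and 43.4 to 44.5% in Runx123_GFP, the highest and the lowest line. No pair of lines overlapped by counting error, but the intervals do not cover which cells were sampled. The order of cd41_GFPlow and lck_GFP_rag1 turned as a mean of per-cell CPM (75.5% in cd41_GFPlow against 82.5% in lck_GFP_rag1). It also turned after thinning (75.6% in cd41_GFPlow against 82.6% in lck_GFP_rag1). For psmb8 against psmb5 the immune-type share was 38.6% in Runx123_GFP, 78.7% in cd41_GFPlow, 68.5% in mpx_EGFP, 29.5% in rag2_GFP, 96.7% in lck_GFP and 94.1% in lck_GFP_rag1. For psmb9 and psmb12 against psmb6 it was 26% in Runx123_GFP, 69.1% in cd41_GFPlow, 46.6% in mpx_EGFP, 77.1% in rag2_GFP, 86.8% in lck_GFP and 47.7% in lck_GFP_rag1. For psmb10 and psmb13a against psmb7 it was 66.6% in Runx123_GFP, 79.1% in cd41_GFPlow, 75.0% in mpx_EGFP, 52.8% in rag2_GFP, 99.2% in lck_GFP and 100% in lck_GFP_rag1. By sums over all cells the lck_GFP line was highest at the sites of psmb5 and psmb6 and second to lck_GFP_rag1 at that of psmb7. At the site of psmb5 lck_GFP_rag1 was higher in cells with at least 1000 detected genes (100% against 95.6% in lck_GFP). With the top cell of every gene left out lck_GFP_rag1 was higher there too (99.2% against 98.8% in lck_GFP). By these sums the rag2_GFP line was mixed, with the lowest shares at the sites of psmb5 and psmb7 and the second highest at that of psmb6. As a mean of per-cell CPM it was lowest at neither of these sites. Its share at the site of psmb5 was then 31.96%, above the 30.1% of Runx123_GFP. At the site of psmb7 its share was 71.1%, above the 66.1% of Runx123_GFP. After thinning the rag2_GFP share was above that of Runx123_GFP at the site of psmb7 (65.1% against 61.7%). At the site of psmb5 it stayed lowest after thinning (24.9% against 33.4% in Runx123_GFP).

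In the lymphoid lines the shares moved with the cells included. In cells with at least 1000 detected genes, 10 of rag2_GFP, 12 of lck_GFP and 18 of lck_GFP_rag1, the immune-type share was 36.6% in rag2_GFP, 92.2% in lck_GFP and 71.9% in lck_GFP_rag1. For psmb9 and psmb12 against psmb6 it was 32.6% in those 10 rag2_GFP cells, where psmb9 was at 1.55 CPM. As a mean of per-cell CPM the share over all 8 genes was 61.6% in rag2_GFP, 92.9% in lck_GFP and 82.5% in lck_GFP_rag1. Over all 8 genes the lck_GFP line was highest and Runx123_GFP or rag2_GFP lowest under each of the alternatives tried, which does not hold at each single site.

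**Figure D3:**
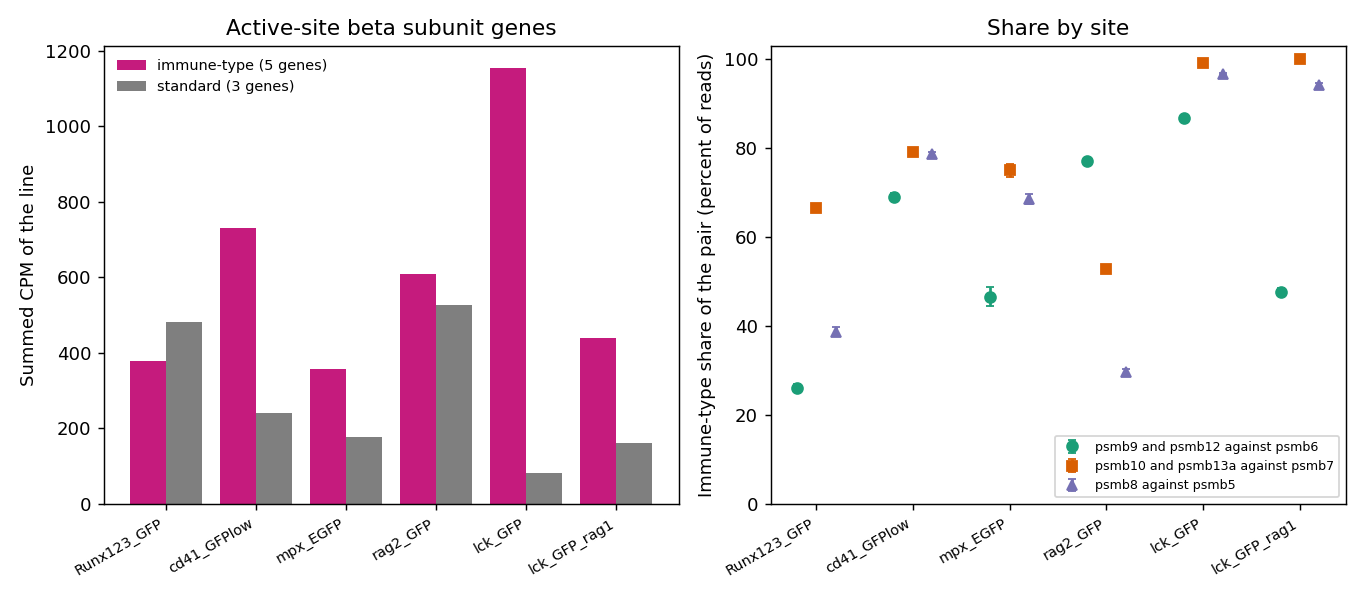
The left panel gives the summed CPM of the 5 immune-type and 3 standard active-site beta subunit genes in each reporter line. The right panel gives the immune-type percent of reads for each of the 3 sites, with 95% Clopper-Pearson intervals for counting error. The lck_GFP bars stand at 1155 CPM for immune-type and 81.0 CPM for standard genes.

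By cell, immune-type genes at 10 CPM or more with no standard gene were found in 25 of 38 lck_GFP cells, while 6 had both kinds, 1 had standard genes only and 6 had neither. In lck_GFP_rag1 11 of 31 cells had immune-type genes only, 3 both, 4 standard only and 13 neither. In Runx123_GFP no cell had immune-type genes only, 25 of 39 had both and 9 standard only. In cd41_GFPlow 33 of 43 cells had both kinds and 6 immune-type only. In mpx_EGFP 17 of 47 cells had immune-type genes only, 16 both and 6 standard only. In rag2_GFP 24 of 48 cells had neither kind, 11 had immune-type genes only, 8 both and 5 standard only. Any standard gene was present in 18.4% of lck_GFP cells (7.74 to 34.3%; 21.9% after thinning) and in 87.2% of Runx123_GFP cells (72.6 to 95.7%; 86.1% after thinning). Any immune-type gene was present in 81.6% of lck_GFP cells (65.7 to 92.3%; 84.4% after thinning) and in 39.6% of rag2_GFP cells (25.8 to 54.7%; 39% after thinning). These classes set 5 immune-type genes against 3 standard ones. Detected genes per cell had a median of 925 in lck_GFP, 2295 in Runx123_GFP and 2804 in cd41_GFPlow. The lck_GFP cells with 2456 and 4719 detected genes, the most in that line, had both kinds. The cells that came next, with 1375, 1315, 1314 and 1254 detected genes, had immune-type genes only, and the one with 1228 had neither. The part of detection in the classes was not tested.

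**Figure D4:**
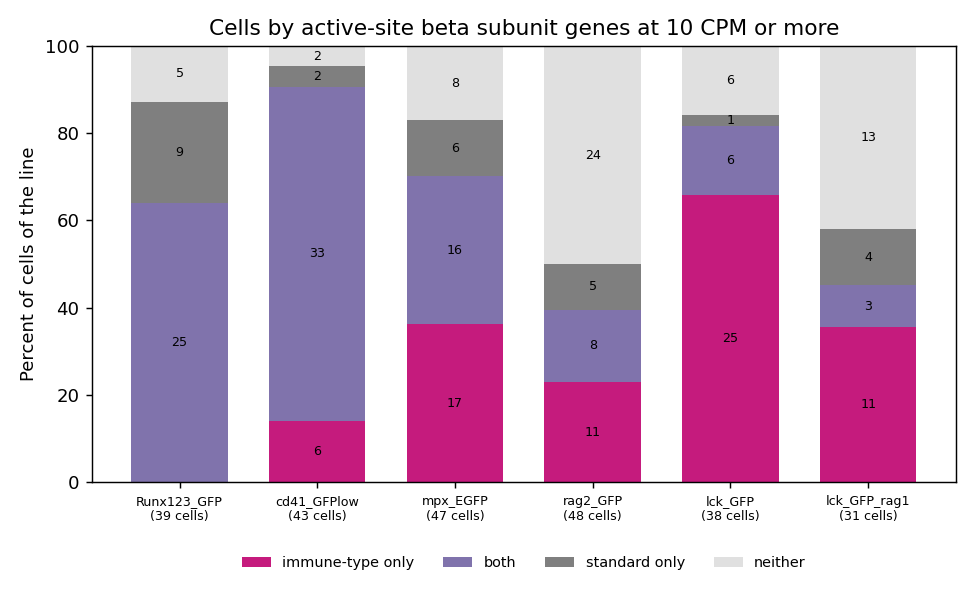
Stacked bars give the percent of cells of each reporter line by which active-site beta subunit genes were at 10 CPM or more in the cell, with the number of cells written in each part. Immune-type only is the largest part in lck_GFP (25 of 38 cells), both kinds in cd41_GFPlow (33 of 43) and neither in rag2_GFP (24 of 48).

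**Figure D5:**
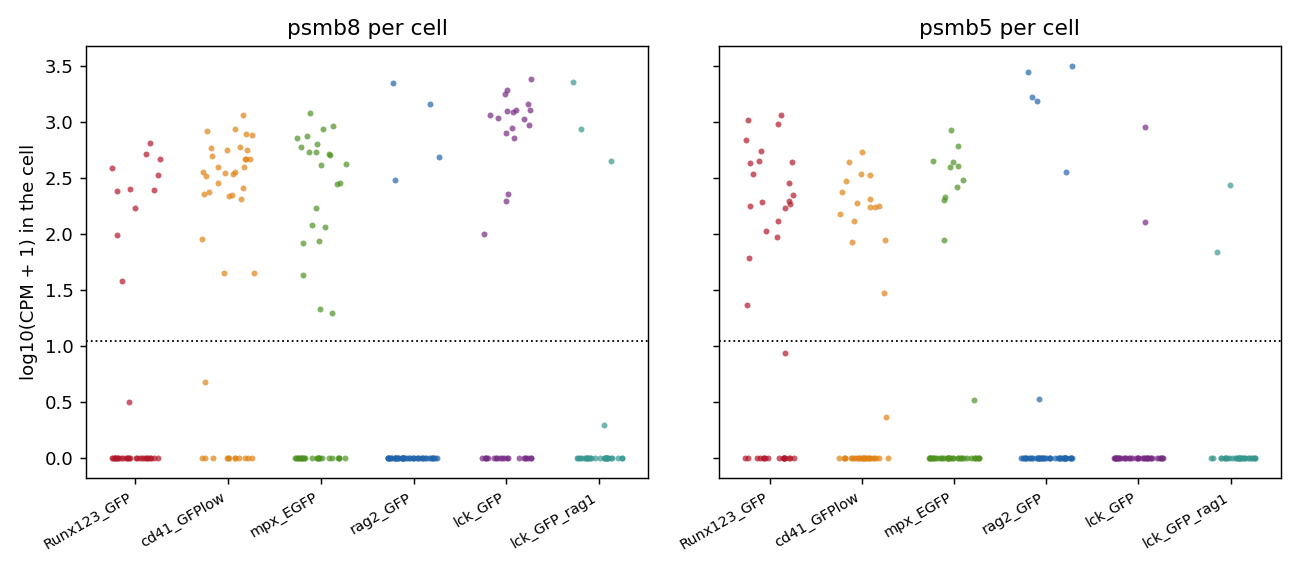
Each point is 1 cell, with log10(CPM + 1) of psmb8 on the left and of psmb5 on the right, by reporter line, and a dotted line at 10 CPM. Above the line, psmb8 has 18 cells of lck_GFP and 11 of Runx123_GFP, while psmb5 has 2 of lck_GFP and 21 of Runx123_GFP.

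The T lineage and B lineage reporters could be compared within plate 2. Immune-type psmb8 and the activator psme2 were higher in lck_GFP cells, and the standard genes psmb5 and psmb7 were lower, by sums over all cells. Of the 51 genes 50 reached 10 CPM in at least 1 of these lines, and 5 were at least 4-fold higher and 8 lower in lck_GFP than in rag2_GFP, where 23.5% of 8829 genes tested were higher and 37.6% lower. Both shares of the proteasome genes were below those of all genes. At 2-fold 15 were higher and 12 lower, beside 30.9% and 45.7% of all genes. The median log2 ratio of the 50 was 0.09, and that of all genes tested was -0.58. It was -0.09 in cells with at least 1000 detected genes, -0.01 with the top cell of every gene left out per line and -0.05 without the lck_GFP cell with the most detected genes. The gene psmb8 was at 489 CPM in lck_GFP against 107 CPM in rag2_GFP (4.58-fold, 4.41 to 4.76), in 18 of 38 cells against 4 of 48. The gene psme2 was at 338 CPM in lck_GFP against 72.4 CPM in rag2_GFP (4.67-fold, 4.46 to 4.89). Also higher were psmd12, at 149 CPM in lck_GFP against 22 CPM in rag2_GFP, psmd4b, at 47.7 CPM in lck_GFP against 1.48 CPM in rag2_GFP, and psmd5, at 118 CPM in lck_GFP against 0 CPM in rag2_GFP, from at most 5 lck_GFP cells each. Lower was psmb5, at 16.7 CPM in lck_GFP against 255 CPM in rag2_GFP (15.3-fold higher in rag2_GFP, 13.8 to 16.9). This rested on 2 of 38 cells against 5 of 48, and the interval does not cover which cells were sampled. Lower too was psmb7, at 2.08 CPM in lck_GFP against 181 CPM in rag2_GFP, from 1 cell against 4. The others lower in lck_GFP were psma6 (ENSDARG00000019398), psmd1, psmd8, psmd9 and both genes named psme4. Each rested on at most 6 rag2_GFP cells. In cells with at least 1000 detected genes 2 of the 5 higher and 6 of the 8 lower genes were called again, and psmb8 was at 346 CPM in lck_GFP against 124 CPM in rag2_GFP, short of 4-fold. As a mean of per-cell CPM psme2 was at 289 CPM in lck_GFP against 99.1 CPM in rag2_GFP, and with the top cell of every gene left out at 245 against 68.3 CPM, both short of 4-fold.

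The alpha ring, whose subunits gate the core and carry no active site, had few genes past 4-fold. Its 10 genes summed to 1946 CPM in Runx123_GFP, 1657 CPM in cd41_GFPlow, 1003 CPM in mpx_EGFP, 1072 CPM in rag2_GFP, 1375 CPM in lck_GFP and 1523 CPM in lck_GFP_rag1. Of them 1 passed 4-fold in mpx_EGFP (psma6l), 1 in lck_GFP (psma6, ENSDARG00000019398) and 1 in lck_GFP_rag1 (psma2), each lower, and none in the remaining lines. Of all genes tested 39.2%, 47.2% and 49.7% were lower in these lines, and 20.9% to 39.2% in the remaining ones. The gene psma6l was at 9.83 CPM in mpx_EGFP against a mean of 71.4 CPM in the other 5 lines, and at 121 CPM in lck_GFP_rag1. The genes that kept up best in mpx_EGFP were also of this ring. They were psma2, at 118 CPM in mpx_EGFP against a mean of 72.4 CPM in the other 5 lines, psma8, for which RefSeq lists the synonym psma7, at 262 against 233 CPM, and psma4, at 137 against 138 CPM. In lck_GFP_rag1 psma2 had 18.5 CPM, 97.5% of it from 1 cell, against a mean of 92.3 CPM in the other 5 lines. The gene psma5 was highest in lck_GFP_rag1, at 375 CPM in lck_GFP_rag1 against a mean of 165 CPM in the other 5 lines.

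The 2 identifiers named psma6 went different ways. The first (ENSDARG00000013966) was lowest in Runx123_GFP, at 30.3 CPM in Runx123_GFP against a mean of 69.1 CPM in the other 5 lines, and highest in lck_GFP, at 112 CPM. The second (ENSDARG00000019398) was at 12.1 CPM in lck_GFP, from 1 cell, and at 139 CPM in Runx123_GFP, 119.5 CPM in rag2_GFP and 39.8 CPM in cd41_GFPlow. They were found in 43 and 44 cells, of which 12 had both. Where a read could fit either of 2 copies its assignment is uncertain. The 4 beta subunits without an active site, psmb1, psmb2, psmb3 and psmb4, summed to 555 CPM in Runx123_GFP, 617 CPM in cd41_GFPlow, 288 CPM in mpx_EGFP, 499 CPM in rag2_GFP, 475 CPM in lck_GFP and 602 CPM in lck_GFP_rag1. None of them passed 4-fold in any line, and the lowest ratio was that of psmb3 in mpx_EGFP, at 35 CPM in mpx_EGFP against a mean of 143 CPM in the other 5 lines.

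In the cap, the neutrophil reporter had the lowest level of both the motor and the other subunits. The 7 ATPase genes, which form the ring that unfolds proteins, summed to 1332 CPM in Runx123_GFP, 1058 CPM in cd41_GFPlow, 354 CPM in mpx_EGFP, 675 CPM in rag2_GFP, 945 CPM in lck_GFP and 608 CPM in lck_GFP_rag1. In mpx_EGFP that was 0.383-fold the mean of the other lines (354 against 924 CPM), with 2 of 7 genes lower by 4-fold, beside 39.2% of all genes tested. With the top cell of every gene left out per line, lck_GFP_rag1 was the lowest, at 243 CPM, and mpx_EGFP was at 272 CPM. The lower genes were psmc6, at 22.1 CPM in mpx_EGFP against a mean of 156 CPM in the other 5 lines, and psmc2, at 19.9 against 136 CPM. In lck_GFP_rag1 the pair of lower ATPase genes was psmc5 and psmc6, where 49.7% of all genes tested were lower. The gene psmc5 was at 197 CPM in Runx123_GFP, 169.8 CPM in cd41_GFPlow, 60.1 CPM in mpx_EGFP, 97.8 CPM in rag2_GFP, 188 CPM in lck_GFP and 0.0701 CPM in lck_GFP_rag1. Its 3 reads in lck_GFP_rag1 came from 1 cell, and 0 of 31 cells reached 10 CPM. The gene psmc6 was at 309 CPM in Runx123_GFP, 218 CPM in cd41_GFPlow, 22.1 CPM in mpx_EGFP, 91.8 CPM in rag2_GFP, 160.1 CPM in lck_GFP and 1.57 CPM in lck_GFP_rag1. In the other 5 lines psmc5 was at 60.1 CPM or more and psmc6 at 22.1 CPM or more.

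The genes psmc1 and psmc1b encode copies of 1 ATPase subunit. In Runx123_GFP psmc1b had the largest ratio of all 51 genes, at 150.1 CPM in Runx123_GFP against a mean of 42.8 CPM in the other 5 lines (log2 ratio 1.79). In rag2_GFP it was lower, at 9.40 CPM from 1 cell against a mean of 71.0 CPM in the other 5 lines. In lck_GFP both copies were lower, with psmc1 at 23.6 CPM in lck_GFP against a mean of 118 CPM in the other 5 lines and psmc1b at 11.9 against 70.5 CPM. The psmc1 level was highest in lck_GFP_rag1, at 202 CPM in lck_GFP_rag1 against a mean of 82.4 CPM in the other 5 lines, with 62.5% of it from 1 of 4 cells. In cd41_GFPlow psmc2 was at 72.5 CPM against a mean of 125 CPM in the other 5 lines. Among genes at 50 CPM or more in the line or that mean, outside active-site beta subunits and activators, its ratio was lowest. The ratio of psmc6 was among the highest of these, with 218 CPM in cd41_GFPlow against a mean of 117 CPM in the other 5 lines. The remaining genes psmc3 and psmc4 passed 4-fold in no line.

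The 14 non-ATPase genes, which bind and trim ubiquitin chains and hold the cap together, summed to 1531 CPM in Runx123_GFP, 1069.7 CPM in cd41_GFPlow, 414 CPM in mpx_EGFP, 795 CPM in rag2_GFP, 851 CPM in lck_GFP and 703 CPM in lck_GFP_rag1. The sum was 2.00-fold the mean of the other lines in Runx123_GFP (1531 against 767 CPM) and 0.418-fold in mpx_EGFP (414 against 989.9 CPM). No gene of this group was higher by 4-fold in any line, beside 6.03% to 15.9% of all genes tested. Lower by 4-fold were 2 in mpx_EGFP (both genes named psmd11), 2 in rag2_GFP, 4 in lck_GFP and 4 in lck_GFP_rag1. Of all genes tested 39.2%, 39.2%, 47.2% and 49.7% were lower in these lines. In Runx123_GFP the large ratios were those of psmd2, a scaffold subunit of the cap base. Its first identifier (ENSDARG00000099653) was at 123 CPM in Runx123_GFP against a mean of 35.1 CPM in the other 5 lines and its second (ENSDARG00000103190) at 57.8 against 16.2 CPM. Of 34 cells with the second, 33 also had the first, and RefSeq (GRCz12tu) lists 1 gene of that name, so how reads were split between them is uncertain. The first was at 21.6 CPM in rag2_GFP, from 1 cell, against a mean of 55.3 CPM in the other 5 lines, and the second at 5.21 CPM in lck_GFP, against 26.8 CPM.

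The 2 genes named psmd11, subunits of the lid, were lowest in different lymphoid lines. The first (ENSDARG00000005134) had no read in lck_GFP_rag1, against a mean of 66.9 CPM in the other 5 lines. At the floor of 3 reads that was at least 954-fold lower by counted reads, which does not cover which cells were sampled. The first was highest in rag2_GFP, at 129 CPM in rag2_GFP against a mean of 41 CPM in the other 5 lines. The second (ENSDARG00000060150) was highest in lck_GFP_rag1, at 155 CPM in lck_GFP_rag1 against a mean of 45.9 CPM in the other 5 lines, and lower in lck_GFP, at 9.55 CPM from 1 cell against 74.9 CPM. It was also the gene of largest ratio in cd41_GFPlow, at 115 CPM in cd41_GFPlow against a mean of 53.9 CPM in the other 5 lines, short of 4-fold, and was at 57.1 against 65.4 CPM in Runx123_GFP. In mpx_EGFP both were lower, at 13.9 and 12 CPM.

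The gene psmd14, which encodes the enzyme of the lid that cuts ubiquitin chains off substrates, was at 115 CPM in Runx123_GFP, 111 CPM in cd41_GFPlow, 36 CPM in mpx_EGFP, 118 CPM in rag2_GFP, 113 CPM in lck_GFP and 0 CPM in lck_GFP_rag1. Against the mean of 98.6 CPM in the other 5 lines the lck_GFP_rag1 level was at least 1407-fold lower at the floor of 3 reads. This too covers counted reads and not which cells were sampled. The ubiquitin receptor gene psmd4b also had no read in lck_GFP_rag1 and was at 1.48 CPM in rag2_GFP against a mean of 37.6 CPM in the other 5 lines. In cd41_GFPlow it was at 54.0 CPM in cd41_GFPlow against a mean of 27.1 CPM in the other 5 lines. The lid gene psmd3 was at 17 CPM in lck_GFP_rag1 against a mean of 77.0 CPM in the other 5 lines, from 1 cell. The lid gene psmd12 was at 22 CPM in rag2_GFP against a mean of 101 CPM in the other 5 lines and at 149 CPM in lck_GFP. In lck_GFP the scaffold gene psmd1 was at 8.77 CPM in lck_GFP against a mean of 90.0 CPM in the other 5 lines and the lid gene psmd8 at 19.9 against 117 CPM. The lid gene psmd6 was at 99.2 CPM in cd41_GFPlow against a mean of 136 CPM in the other 5 lines and at 292 CPM in Runx123_GFP. Of the other genes of this group, psmd4, psmd7 and psmd13 passed 4-fold in no line. In lck_GFP_rag1 6 of the 51 genes had no read, more than in any other line, beside 31 cells and a median of 4 of the 51 genes per cell. Of all genes tested 49.7% were lower by 4-fold in this line. The share of all genes without a read is not given here, so the count does not set the proteasome genes apart. The part of low detection in the zeros of these genes was not tested.

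The 3 chaperones that help to assemble the cap base were each found in at most 11 cells of a line. The gene psmd5 was at 35.1 CPM in Runx123_GFP, 13.8 CPM in cd41_GFPlow, 7.99 CPM in mpx_EGFP, 0 CPM in rag2_GFP, 118 CPM in lck_GFP and 0 CPM in lck_GFP_rag1. It was called higher in lck_GFP on 2 of its 38 cells. The gene psmd10, also called gankyrin, was at 1.25 CPM in mpx_EGFP against a mean of 28.8 CPM in the other 5 lines, from 1 cell, and at 44.1 CPM in lck_GFP. The gene psmd9 was at 61.5 CPM in rag2_GFP against a mean of 24.2 CPM in the other 5 lines, from 3 cells, short of 4-fold.

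The activators that sit on the core differed by member. The interferon-inducible pair psme1 and psme2, whose products form a ring together, was highest in lck_GFP by line sums, next to lck_GFP_rag1. The gene psme1 was at 110.2 CPM in Runx123_GFP, 155 CPM in cd41_GFPlow, 148 CPM in mpx_EGFP, 132 CPM in rag2_GFP, 265 CPM in lck_GFP and 206 CPM in lck_GFP_rag1. The gene psme2 was at 221 CPM in Runx123_GFP, 261 CPM in cd41_GFPlow, 60.1 CPM in mpx_EGFP, 72.4 CPM in rag2_GFP, 338 CPM in lck_GFP and 302 CPM in lck_GFP_rag1. It reached 10 CPM in 18 of 39 in Runx123_GFP, 31 of 43 in cd41_GFPlow, 8 of 47 in mpx_EGFP, 6 of 48 in rag2_GFP, 9 of 38 in lck_GFP and 9 of 31 in lck_GFP_rag1. The order of the upper lines turned with the cells included. Without the lck_GFP cell with the most detected genes, where psme2 was at 1278 CPM, it was at 296 CPM in lck_GFP, below lck_GFP_rag1. With the top cell of every gene left out psme2 in lck_GFP (245 CPM) lay below cd41_GFPlow (250.2 CPM), while for psme1 lck_GFP (163 CPM) lay below lck_GFP_rag1 (176 CPM). In cells with at least 1000 detected genes psme1 was again lower in lck_GFP (218 CPM) than in lck_GFP_rag1 (277 CPM). The gene psme2 was low in mpx_EGFP and rag2_GFP, where the log2 ratios were -1.97 and -1.69, and neither gene passed 4-fold in any line. The gene psme3, whose product acts in the nucleus, was at 131 CPM in Runx123_GFP, 109 CPM in cd41_GFPlow, 13.9 CPM in mpx_EGFP, 113 CPM in rag2_GFP, 89.0 CPM in lck_GFP and 98.6 CPM in lck_GFP_rag1, and was called lower in mpx_EGFP with 3 of 47 cells. Of the genes named psme4, whose product is known to act on acetylated histones, the first (ENSDARG00000018742) was at 60.7 CPM in Runx123_GFP, 38.3 CPM in cd41_GFPlow, 58.0 CPM in mpx_EGFP, 173 CPM in rag2_GFP, 24.1 CPM in lck_GFP and 75.8 CPM in lck_GFP_rag1, and passed 4-fold in no line against the mean of the other 5. The second (ENSDARG00000087911) was at 3.57 CPM in Runx123_GFP, 2.89 CPM in mpx_EGFP and 25.9 CPM in rag2_GFP and had no read in the other lines. Its calls, higher in rag2_GFP and lower in cd41_GFPlow, lck_GFP and lck_GFP_rag1, rested on 1 rag2_GFP cell.

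Position sets 4 of the 5 immune-type genes together. In RefSeq (GRCz12tu, another assembly than the GRCz10 build of the counts) psmb13a, psmb8a, psmb12 and psmb9a are consecutive protein-coding genes on chromosome 19, with mhc1uba and tapbp.1 among the genes on 1 side and tap2a next on the other. The names psmb8a and psmb9a are those of psmb8 and psmb9 there. The class I region of zebrafish is known to differ in gene content between fish, and the labels do not say which forms these lines carry. The listed span of psmb8a also covers psmb12 and psmb9a, and whether reads were counted by strand is not given in the sources used here, so how reads split among these 3 is uncertain. Cells with psmb8 did not always have its neighbours. In cd41_GFPlow 17 cells had both psmb8 and psmb9, of 30 with psmb8 and 18 with psmb9. In lck_GFP 4 had both, of 18 with psmb8 and 11 with psmb9, and in rag2_GFP 0, of 4 and 5.

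Of 20 measured genes of class I peptide loading, which carry proteasome products to class I molecules, 4 were higher by 4-fold and 3 lower in lck_GFP, beside 8.64% and 47.2% of all genes tested. The lower ones were calr, calr3b and mhc1zea. The higher ones were the peptide transporter genes tap1, at 121 CPM in lck_GFP against a mean of 3.01 CPM in the other 5 lines, and tap2a, at 169 against 14.4 CPM, the tapasin gene tapbp.1, at 184 against 21.9 CPM, and the class I gene mhc1uba, at 3068 against 286 CPM. The transporter genes were found in few cells, tap1 in 4 and tap2a in 9 of 38. In lck_GFP_rag1 1 gene of this list was higher and 6 lower (8.59% and 49.7% of all genes), with tap1 at 0 and mhc1uba at 42.2 CPM. In rag2_GFP 1 was higher and 5 lower (15.9% and 39.2% of all genes), with mhc1uba at 21.6 CPM. The counts were 1 and 8 in mpx_EGFP (6.03% and 39.2%), 0 and 2 in cd41_GFPlow (6.43% and 20.9%) and 0 and 6 in Runx123_GFP (11.3% and 25.3%). The light chain gene b2m, shared by class I molecules, was at 612 CPM in Runx123_GFP, 1246 CPM in cd41_GFPlow, 757 CPM in mpx_EGFP, 1725 CPM in rag2_GFP, 3279.7 CPM in lck_GFP and 2297 CPM in lck_GFP_rag1, and passed 4-fold in no line. The median log2 ratio of this list was 0.81 in lck_GFP and -1.19 in lck_GFP_rag1, beside -1.82 and -1.98 over all genes tested in these lines.

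Of 10 measured genes of interferon signalling, which induces immune-type subunits in mammals, 2 were higher and 1 lower in lck_GFP, beside 8.64% and 47.2% of all genes tested. Among those higher was nlrc5, an activator of class I genes, at 78.7 CPM in lck_GFP against a mean of 18.6 CPM in the other 5 lines. The receptor gene ifngr1 had no read in lck_GFP or lck_GFP_rag1. In the remaining lines the counts higher and lower were 0 and 4 in lck_GFP_rag1 (8.59% and 49.7% of all genes), 1 and 2 in rag2_GFP (15.9% and 39.2%), 0 and 2 in mpx_EGFP (6.03% and 39.2%), 1 and 0 in cd41_GFPlow (6.43% and 20.9%) and 0 and 2 in Runx123_GFP (11.3% and 25.3%). Of 11 ubiquitin genes and enzymes, 1 was higher in lck_GFP_rag1 (ube2d1b, at 359.9 against 77.8 CPM), 1 lower in mpx_EGFP (nploc4, at 8.36 against 135 CPM) and 1 lower in rag2_GFP (ube2d3, at 0.0631 against 54.5 CPM), and 0 passed in the other lines. In these lines 8.59% of all genes were higher in lck_GFP_rag1, and 39.2% were lower in mpx_EGFP and 39.2% in rag2_GFP.

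Of 13 measured assembly factors and partners of the proteasome, 4 were lower and 1 higher in lck_GFP, beside 47.2% lower and 8.64% higher of all genes tested. The lower ones included pomp, which builds the beta ring, at 17.5 CPM in lck_GFP against a mean of 133 CPM in the other 5 lines, psmg3, a chaperone of the alpha ring, at 3.69 against 54.8 CPM, and the inhibitor gene psmf1, at 7.17 against 37.5 CPM. The gene pomp was highest in lck_GFP_rag1, at 191 CPM, where 0 of the 13 were higher and 3 lower (8.59% and 49.7% of all genes). In rag2_GFP 1 was higher and 4 lower (15.9% and 39.2%), among them the alpha ring chaperone gene psmg1, with no read there and 115 CPM in lck_GFP. In mpx_EGFP 0 were higher and 2 lower (6.03% and 39.2%), in cd41_GFPlow 0 and 1 (6.43% and 20.9%), and in Runx123_GFP 0 and 2 (11.3% and 25.3%). The transcription factor gene nfe2l1b, known in mammals for raising proteasome genes when the protease is inhibited, was at 38.8 CPM in Runx123_GFP, 5.98 CPM in cd41_GFPlow, 0.0418 CPM in mpx_EGFP, 105 CPM in rag2_GFP, 6.25 CPM in lck_GFP and 57.1 CPM in lck_GFP_rag1. It was called higher in rag2_GFP on 2 cells, and lower in cd41_GFPlow, mpx_EGFP and lck_GFP. The gene named nfe2l1 went another way and was the 1 gene of this list called higher in lck_GFP. It had no read in Runx123_GFP, mpx_EGFP, rag2_GFP or lck_GFP_rag1. The 2 partner protein genes were highest in Runx123_GFP. The gene psmc3ip, which acts in meiotic recombination, was at 24.2 CPM in Runx123_GFP against a mean of 5.64 CPM in the other 5 lines, and psme3ip1 at 43.6 CPM in Runx123_GFP against a mean of 9.06 CPM in the other 5 lines (log2 ratios 1.92 and 2.15).

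In lck_GFP 1 cell stood apart from the rest of its line. It had 4719 detected genes, where the next had 2456, and 49 of the 51 proteasome genes, where the next had 29. The summed level in it was 18284 CPM, where the next cell was at 13713 CPM. It held all 48 psmb7 reads of the line. Markers of erythroid cells, thrombocytes, monocytes, neutrophils, B cells and kidney tubule were at 0 in it, while 3 of 5 T cell and 2 of 5 NK and cytotoxic markers reached 10 CPM. Its immune-type share of active-site reads was 83.5%. Without it the 51 genes summed to 5212 CPM in lck_GFP, psmb8 was at 456 CPM, psmb5 at 11.8 CPM and psmb7 at 0, and the immune-type share was 94.4%. The count of genes lower in lck_GFP was then 11 against the other lines and 10 against rag2_GFP, and the shares of all genes without this cell are not given.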

How the data were processed

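The authors deposited a table of read counts per Ensembl gene and cell, whole numbers that they had not normalized. STAR, Picard and featureCounts are named with genome build GRCz10 per the submitters' processing notes, and versions, options and strandedness are not given in the sources used here. The labels name no molecular identifiers. Tables of cell metrics and mapping rates were not used. Of 21876 genes, 425 had no read and 2527 had no symbol (5.23% of reads), and these counted in totals only. Cells had 47630 to 2969770 reads. Each column name matched 1 cell title, and no cells had identical counts. No cell was left out, and no doublet caller was run on these sorted wells.

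Counts were summed per line and scaled to CPM in Python 3.11.15 (pandas 2.3.3, scipy 1.17.1). Log2 ratios used 1 CPM as pseudocount, 10 CPM in at least 1 line as filter and 4-fold as threshold. The code was checked on simulated Poisson counts of line sums, which hold no variation between cells. That check cannot show how calls behave where a gene rests on few cells. With 1 sample per line no count model was fitted. TMM factors (edgeR 4.0.16) and DESeq2 1.42.0 size factors served as alternative scalings of the line sums. Thinning drew 200000 reads per cell and left out shallower cells. Outside the active-site beta subunits and activators, genes were named as the 3 highest and 3 lowest ratios of a line at 50 CPM or more in the line or the mean of the others. Genes that passed 4-fold, or make up a whole role, were named after their values were seen. Members, lists and markers were chosen with earlier results of these data known. Shared names were told apart by Ensembl identifier, and gene order came from RefSeq (GRCz12tu). Transcript lengths were not used here, so levels were compared across lines and not between genes. The values of 1 gene of the interferon signalling list are not reported here.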

Additional observations from a re-analysis of the deposited data

How the results depend on the processing

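Of 168 recomputed counts of proteasome genes past the threshold, 132 stayed within 1.5 times the reported count, 20 were larger and 16 smaller. Without a filter, and with DESeq2 or TMM scaling, all stayed within it. Averaging per-cell CPM left 1 gene higher in rag2_GFP and 1 in lck_GFP. Without the deepest cell of every line 1 was higher in Runx123_GFP, 1 in rag2_GFP, 1 in lck_GFP and 1 in lck_GFP_rag1. Without each gene's top cell 4 were higher in Runx123_GFP and 1 in rag2_GFP, and 0 were lower in cd41_GFPlow, 10 in rag2_GFP and 18 in lck_GFP_rag1. The median ratio of all genes moved there too, to 0.18 in Runx123_GFP, -2.17 in rag2_GFP and -2.74 in lck_GFP_rag1. Apart from 2-fold, shares of all genes past the threshold are not given for the alternatives. The counts under them are therefore not read as results about the proteasome genes. Thinned cells gave 1 higher and 1 lower in Runx123_GFP, 1 higher in rag2_GFP and 1 in lck_GFP. A filter of 50 CPM gave 0 lower in cd41_GFPlow and 1 higher in rag2_GFP. At 2-fold 13 were higher and 4 lower in Runx123_GFP, 1 and 3 in cd41_GFPlow, 7 and 12 in rag2_GFP and 5 and 16 in lck_GFP, 26 were lower in mpx_EGFP, 5 higher in lck_GFP_rag1 and 15 higher in lck_GFP than in rag2_GFP. A pseudocount of 10 CPM gave 0 lower in cd41_GFPlow, 5 in mpx_EGFP and 5 in lck_GFP, and 1 higher in rag2_GFP and 1 in lck_GFP. Cells with at least 1000 detected genes, an alternative chosen after seeing the data, gave 15 lower in mpx_EGFP, 4 higher in rag2_GFP and 6 lower in lck_GFP, and 4 of those 6 were among the 10 reported.

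The immune-type share of active-site reads, as a mean of per-cell CPM, was 40.4% in Runx123_GFP, 61.6% in rag2_GFP, 92.9% in lck_GFP and 82.5% in lck_GFP_rag1. Without the deepest cell of every line it was 40.9% in Runx123_GFP, 75.7% in cd41_GFPlow, 57.3% in rag2_GFP, 93.1% in lck_GFP and 75.3% in lck_GFP_rag1. Without each gene's top cell it was 40.7%, 52.5%, 94.0% and 70.0% in Runx123_GFP, rag2_GFP, lck_GFP and lck_GFP_rag1, and after thinning 39.8%, 58.9%, 91.4% and 82.6% in the same lines. In cells with at least 1000 detected genes it was 47.4% in Runx123_GFP, 74.7% in cd41_GFPlow, 36.6% in rag2_GFP, 92.2% in lck_GFP and 71.9% in lck_GFP_rag1. Without the lck_GFP cell with the most detected genes, also chosen after seeing the data, it was 94.4%. Counting any read in place of 10 CPM, 100% of Runx123_GFP cells and 100% of rag2_GFP cells had at least 1 proteasome gene. The median ratio of the 51 genes changed sign in cd41_GFPlow (-0.19), rag2_GFP (0.32) and lck_GFP (-0.42) in cells with at least 1000 detected genes, where the rag2_GFP share at the site of psmb6 was 32.6%, against 77.1% over all cells. The highest summed level moved from Runx123_GFP to lck_GFP there and with TMM. The cause of the shifts was not tested.

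No paired analysis was possible because each line is 1 sample and the replicate numbers were given in accession order. In the lymphoid lines the median cell had 3 or 4 of the 51 genes, and 3, 4 and 4.5 after thinning in rag2_GFP, lck_GFP and lck_GFP_rag1, so single genes there rest on few cells at any depth tried. Absence of reads in a line does not by itself show absence of the transcript, and the part of detection in it was not tested.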
